A study of Homo sapiens with 4 samples.

Results

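The genes described here encode 56 nucleolar factors that build the ribosome. They were taken by name from the gene count table of a PRMT3 knockdown experiment: subunits and initiation factors of RNA polymerase I, core proteins of the small nucleolar ribonucleoproteins (snoRNPs), and factors that process the small and the large ribosomal subunit. The rule uses names and no measured value, although earlier results of these data were known when the list was drawn up. All 56 were among the 15575 genes of the table and among the 13172 genes that passed the filter on low counts. The cells were U251, an established human glioblastoma (GBM) line. One group, Ctrl, carried a lentiviral control shRNA (pGreen Ctrl in the sample names), and the other, PRMT3-KD, a lentiviral shRNA against PRMT3, a cytoplasmic protein arginine methyltransferase whose known substrate is the ribosomal protein RPS2. RNA was taken at 72 h from 2 libraries per group, all from the same line. The paper knocked PRMT3 down in U251 with 2 shRNAs, and the shRNA used for these libraries is not named in the sources used here. A single hairpin may stand behind the knockdown, or the PRMT3-KD libraries may carry different hairpins.

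Ribosome assembly begins in the nucleolus, where RNA polymerase I transcribes ribosomal DNA into a long precursor. Box C/D snoRNPs guide 2′-O-methylation and box H/ACA snoRNPs guide pseudouridylation of this precursor, while the small subunit processome and a series of pre-60S factors fold and cleave it. Growing tumour cells make many ribosomes, and many of these factors are known targets of MYC, which binds the E-box in promoters.

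Total counts per library lay between 24804250 and 29756313. PRMT3 had 535 counts in each Ctrl library and after knockdown 77 counts in library 1 and 45 in library 2, or 19.3 and 19.5 against 3.03 and 1.58 CPM (counts scaled to the library total and normalized with TMM factors), a log2 fold change of -3.08 (SE 0.314, edgeR adjusted p = 0.0177). Of the 10 glioma markers, VIM, NES, SOX2, SOX9 and CD44 each had at least 3359 counts in every library. GFAP was lower, with 363 and 392 counts in Ctrl and 32 and 153 in PRMT3-KD libraries. Across the libraries SLC1A3 had 1679 to 3252 counts, FABP7 373 to 961, S100B 49 to 80 and ALDH1L1 5 to 16. Markers of other cell types were mixed. PTPRC, the pan-leukocyte marker, had at most 7 counts, but CD68 had 665 to 845, above GFAP in every library. AIF1, CD3E, PECAM1, RBFOX3, NEUROD1, OLIG2 and EPCAM are not listed in the table. The summed counts of the immune list (3 of 5 markers listed, mostly CD68) were 682 and 717 in Ctrl and 764 and 858 in PRMT3-KD libraries. Those of the neuronal list (2 of 4 listed, mostly SNAP25) were 121 and 117 against 150 and 94. The endothelial list (3 of 4 listed) had 761 and 815 against 499 and 1076, in which CDH5 was highest in PRMT3-KD library 2 (722, with 129 to 146 in the others), KDR was lowest there (284, with 340 to 612) and VWF had 30 to 70. The oligodendrocyte and epithelial lists had at most 21 and 9 counts in a library. The part of these cell type markers in the values below was not tested. The Ctrl libraries differed little more than counting error gives, with a chi-square per degree of freedom of 1.41 over 13004 genes. For the PRMT3-KD libraries this ratio was 66.7 over 12997 genes, and nothing in the labels says whether either pair came from separate cultures, so the p-values measure only the spread between these samples.

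A feature that 17 of the genes have in their promoters is shown first. The canonical E-box, CACGTG, reads the same on both strands. It was searched in RefSeq promoters of 300 bases (250 before to 50 after the start, build GRCh38.p14), which 49 of the 56 genes have. It was present in 17 of these 49 promoters, or 34.7%. Over all 35116 promoters of the table the share was 7.26%, and over the 10098 tested genes with a promoter it was 9.93%. Of the 17 genes, 15 have an E-box within 50 bases of the start site, or 30.6% of the 49 promoters, against 3.93% of the tested genes' promoters. The sequences below come from 7 of these genes, chosen because they include both genes with an E-box that fell after knockdown (PNO1 and EBNA1BP2) and named factors of other classes. Each is on the strand of its gene, 5′ to 3′, with the E-box in capitals.
PNO1 (chr2:68157897-68157902, plus strand, 9 bases after the start): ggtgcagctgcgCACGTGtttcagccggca
EBNA1BP2 (chr1:43172802-43172807, minus strand, position -237): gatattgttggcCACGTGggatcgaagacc
FBL (chr19:39846368-39846373, minus strand, 6 bases after the start): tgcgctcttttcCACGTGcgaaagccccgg
NOP10 (chr15:34343142-34343147, minus strand, position -11): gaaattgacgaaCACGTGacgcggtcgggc
NOP14 (chr4:2963386-2963391, minus strand, 15 bases after the start): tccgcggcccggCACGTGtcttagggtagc
UTP20 (chr12:101280095-101280100, plus strand, position -10): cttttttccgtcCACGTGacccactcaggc
LTV1 (chr6:143843366-143843371, plus strand, 28 bases after the start): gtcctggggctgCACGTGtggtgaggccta
The coordinates are those of the capitals, and positions count from the first transcribed base. Among the 17 genes with an E-box the median log2 fold change in PRMT3-KD was 0.02, and among the 32 without it was 0.07. Past the threshold 2 of the 17 (11.8%) and 0 of the 32 fell, beside 5.97% of all tested genes. Whether the E-box has a part in this was not tested. RRP1B has no entry in the promoter table. A match to these letters is not evidence of binding.

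**Figure D1:**
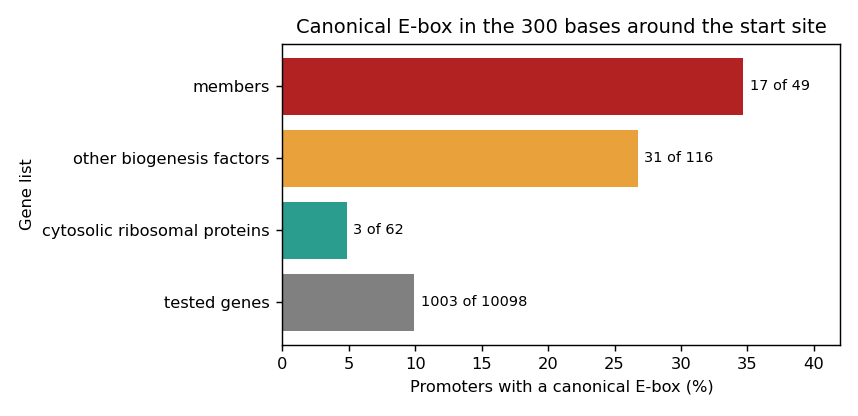
Share of promoters (x axis, percent) that hold a canonical E-box, for the 56 nucleolar factors ("members"), other ribosome biogenesis factors, cytosolic ribosomal protein genes and tested genes, with the number of promoters beside each bar. The bar of the nucleolar factors reaches 34.7% and that of the cytosolic ribosomal protein genes 4.84%.

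Of the 116 other ribosome biogenesis factors with a promoter, 31 held an E-box (26.7%), and of 62 cytosolic ribosomal protein genes 3 did (4.84%). A second feature, held by a minority of the factors, was small nucleolar or Cajal body RNA genes inside the gene. Such a gene lies within 9 of the 56 factors (16.1%), namely DKC1, GNL3, NCL, NOP56, NOP58, POLR1C, PPAN, TSR1 and WDR43, against 365 of 13163 tested genes in the annotation (2.77%). None of these 9 passed the edgeR test, and their smallest unadjusted p was 0.0968, that of GNL3.

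Across the 56 genes, 3 fell and 0 rose past the threshold (adjusted p below 0.05 together with more than 1.5-fold). The 3 were EBNA1BP2, PNO1 and RRP1B, or 5.36% of the list, where 5.97% of all tested genes were lower and 4.97% higher by the same rule. The share of fallen factors was thus near the background. Without the fold threshold 4 were lower (8.91% of all genes) and 1 was higher (8.39% of all genes), the additions being NOLC1 and LTV1. At an unadjusted p under 0.05 the numbers were 10 lower (17.9% of the list, 18.5% of all genes) and 3 higher (5.36% of the list, 19.1% of all genes). DESeq2 placed the same 3 genes past the threshold and no other. The median log2 fold change was 0.04, beside 0.0055 over all tested genes, with 25 values below 0 and 31 above. Both PRMT3-KD libraries lay below both Ctrl libraries for 16 factors (28.6% of the list, 33.8% of all genes) and above them for 12 (33.3% of all genes). The groups overlapped for 28 of the 56, beside 4334 of all 13172 tested genes. Outside the 3 that fell, the log2 fold changes ran from -0.52 to 0.55.

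**Figure D2:**
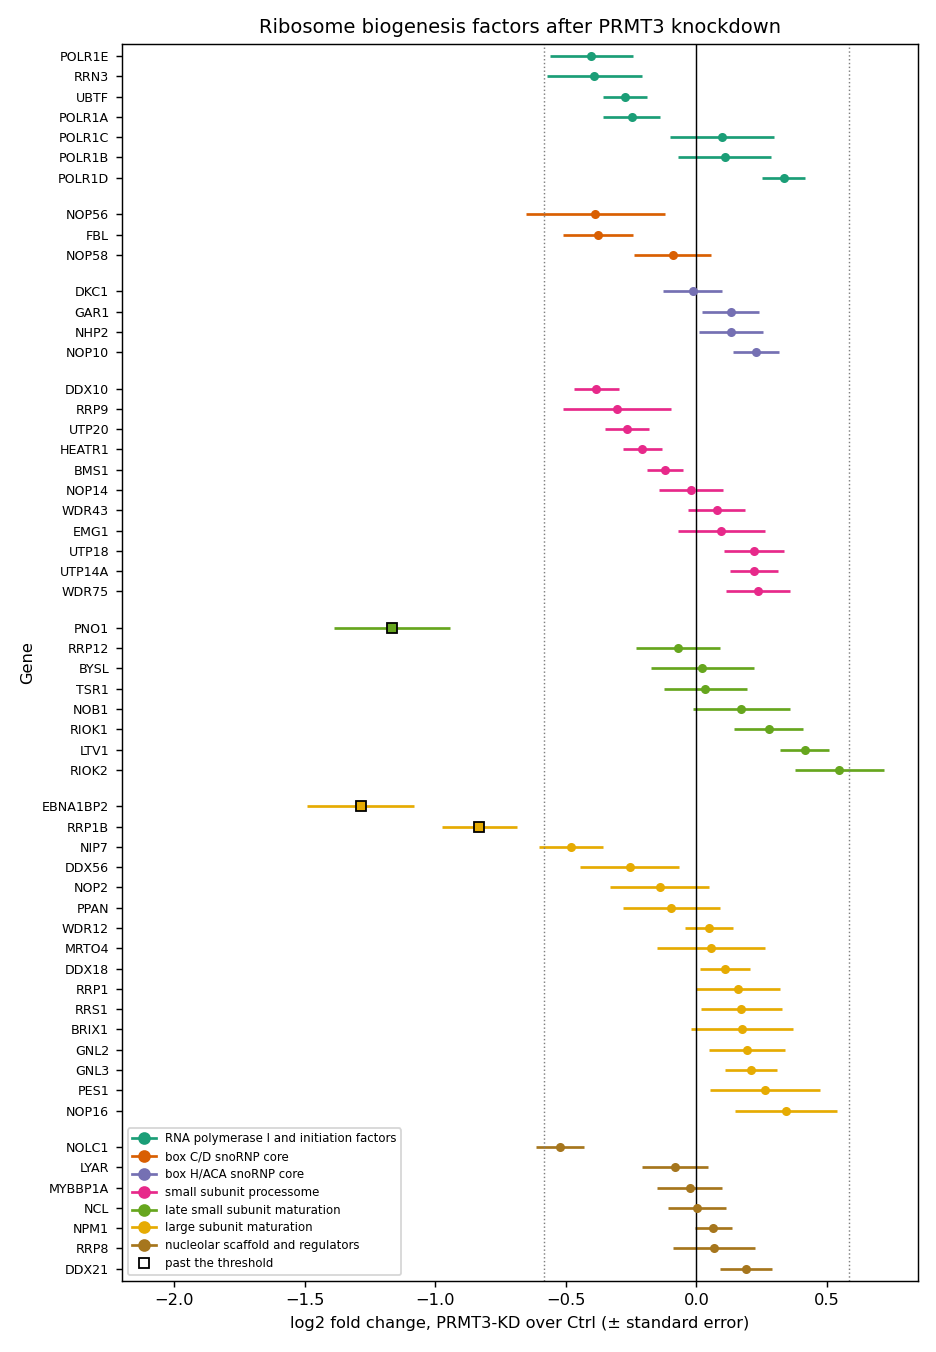
Log2 fold change of each of the 56 factors in PRMT3-KD over Ctrl libraries (x axis, points, 2 libraries per group) with its standard error (bars), grouped by class, with dotted lines at 1.5-fold and squares for genes past the threshold. Only EBNA1BP2 (-1.29), PNO1 (-1.17) and RRP1B (-0.83) lie past the threshold, and every class holds values near 0.

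EBNA1BP2, a pre-60S factor, is encoded on chromosome 1 (GRCh37 chr1:43629846-43736607, minus strand, GENCODE 44 lifted to this build). Its level was 108 and 105 CPM in the Ctrl libraries and 52.5 and 35.2 CPM in the PRMT3-KD libraries. Both knockdown values were under 50% of the Ctrl mean, and the groups did not overlap. The log2 fold change of EBNA1BP2 was -1.29 (SE 0.206, edgeR adjusted p = 0.0283). An exon of CFAP57 overlaps an EBNA1BP2 exon on the opposite strand. Since the strand setting of the counting is not stated, reads in the overlapping stretch cannot be told apart.

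PNO1 binds the precursor of the small subunit beside the endonuclease NOB1 and lies on chromosome 2 (GRCh37 chr2:68385020-68403370, plus strand). PNO1 had 37.5 and 39.0 CPM in Ctrl and 20.7 and 13.5 CPM after knockdown, again without overlap. Its log2 fold change was -1.17 (SE 0.222, edgeR adjusted p = 0.0375). An unnamed gene, ENSG00000273398, overlaps a PNO1 exon on the other strand.

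RRP1B, a nucleolar pre-60S factor on chromosome 21 (GRCh37 chr21:45079441-45115960, plus strand), had 79.7 and 81.6 CPM in Ctrl libraries. In PRMT3-KD libraries RRP1B had 51.2 and 39.5 CPM, a log2 fold change of -0.83 (SE 0.144, edgeR adjusted p = 0.0319). Its paralog RRP1 gave 0.16 (SE 0.162, adjusted p = 0.520). When either Ctrl library was left out, the log2 fold changes of EBNA1BP2, PNO1 and RRP1B ran from -1.30 to -0.82. Whether the 3 passed with a library left out depended on which pair remained to set the spread. Such fits therefore cannot decide whether the 3 calls hold.

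NOLC1 (Nopp140), a chaperone of snoRNPs, had 238 CPM in both Ctrl libraries and 177 and 155 CPM in the PRMT3-KD libraries. The groups did not overlap but the change stayed under 1.5-fold, at -0.52 (SE 0.0911, edgeR adjusted p = 0.0325). The adjusted p of NOLC1 was 0.0511 with library totals as the only scaling, and 0.343 and 0.327 without Ctrl library 1 or 2. LTV1, which is carried on the pre-40S particle until late maturation, moved the other way, with 72.04 and 70.7 CPM in Ctrl libraries and 101 and 89.1 CPM after knockdown. The log2 fold change of 0.41 (SE 0.0927) had an edgeR adjusted p = 0.0499, which was 0.105 with library totals only, 0.0758 with the replicate number as a block, 0.0547 with genes of at least 1 count in any library, and 0.446 and 0.467 without Ctrl library 1 or 2.

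**Figure D3:**
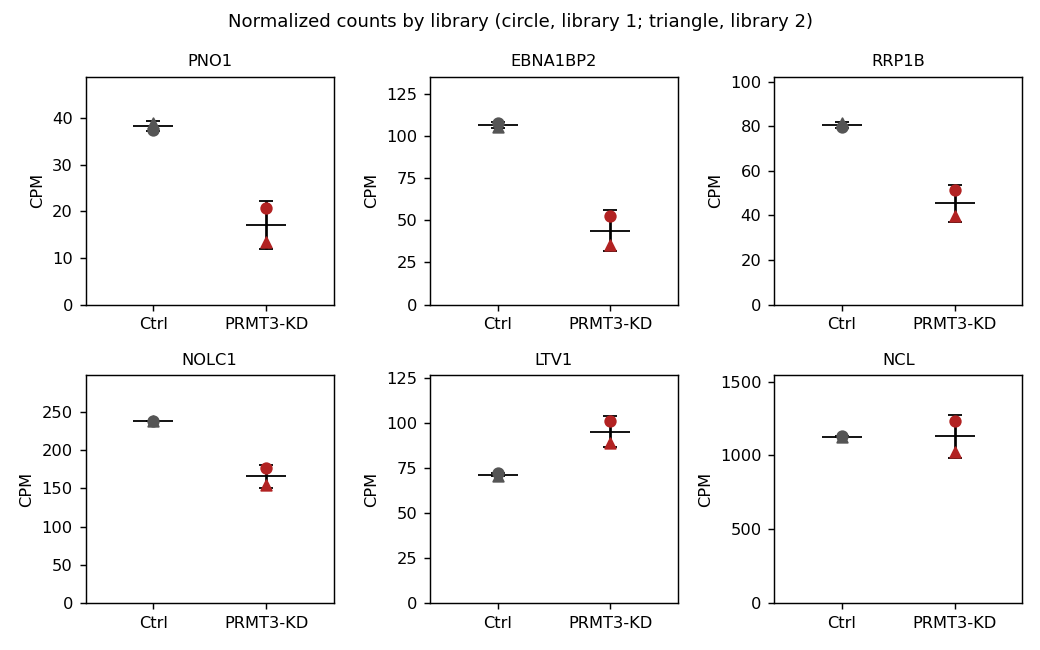
Level in CPM (y axes, each starting at 0) of PNO1, EBNA1BP2, RRP1B, NOLC1, LTV1 and NCL in each library, with circles for library 1, triangles for library 2, and the mean ± SD of the 2 libraries of a group. The Ctrl values of each gene nearly coincide while the PRMT3-KD values stand apart from each other, and library 2 is the lower of the PRMT3-KD pair in all 6 panels.

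In the RNA polymerase I class, 0 of 7 genes passed the edgeR threshold (1 lower and 1 higher at an unadjusted p under 0.05, where the shares over all genes were 18.5% and 19.1%), and the median log2 fold change was -0.25. UBTF, the factor that binds and opens ribosomal DNA, had 137 and 135 CPM in Ctrl and 119 and 106 CPM in PRMT3-KD libraries, a log2 fold change of -0.27 (SE 0.0856, edgeR adjusted p = 0.0952). POLR1A, the largest subunit of the polymerase, had 79.4 and 78.7 CPM in Ctrl libraries, and 72.3 and 60.9 CPM after knockdown (-0.25, SE 0.108, adjusted p = 0.177). For both genes the groups did not overlap, but the difference did not pass the test across all genes. In the whole class the PRMT3-KD libraries lay below both Ctrl libraries for 4 of 7 genes (57.1%, beside 33.8% of all genes). They lay above for 1 (beside 33.3% of all genes). POLR1D, a subunit shared with RNA polymerase III, was on the other side, at 45.2 and 46.0 CPM against 59.6 and 55.4 CPM (0.33, SE 0.0813, adjusted p = 0.0586). POLR1E and RRN3, the latter the factor that brings the polymerase to the promoter, gave -0.40 and -0.39 on the log2 scale (edgeR adjusted p = 0.150 and 0.198).

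The snoRNP core proteins of the list split by box type, in medians only. All 3 box C/D proteins of the list had values below 0 (median -0.38), and 3 of the 4 box H/ACA proteins had values above 0 (median 0.13). Past the edgeR threshold were 0 of these 7. At an unadjusted p under 0.05 in edgeR FBL was lower and the other 6 were not called, where 18.5% of all genes were lower and 19.1% higher. FBL, fibrillarin, the methyltransferase of box C/D particles, had 152 and 158 CPM in Ctrl and 133 and 105 CPM in PRMT3-KD libraries (-0.38, SE 0.133, edgeR adjusted p = 0.119). NOP56, its partner, had 160.3 and 160.4 CPM in Ctrl libraries, 155 CPM in PRMT3-KD library 1 and 90.4 CPM in library 2. The NOP56 difference therefore came almost wholly from a single library (-0.39, SE 0.267, adjusted p = 0.354), and without PRMT3-KD library 1 it was -0.82. NOP58, the remaining box C/D protein of the list, gave -0.09 (SE 0.148, edgeR adjusted p = 0.693), with overlapping groups. SNU13, also a box C/D core protein, was placed with the other factors and gave 0.05 (SE 0.138, edgeR adjusted p = 0.814), with overlapping groups. DKC1, dyskerin, the pseudouridine synthase of box H/ACA particles, had 192 and 195 CPM in Ctrl and 209.99 and 173 CPM in PRMT3-KD libraries, so that the knockdown values lay on both sides of Ctrl. NOP10 had 36.7 and 34.9 CPM against 43.3 and 40.7 CPM (0.23, SE 0.0866, adjusted p = 0.137), NHP2 a log2 fold change of 0.13 (SE 0.123) and GAR1 of 0.13 (SE 0.110).

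Among the 11 factors of the small subunit processome, 0 passed by edgeR (3 lower and 0 higher at an unadjusted p under 0.05, beside 18.5% and 19.1% of all genes), with 6 values below 0 and 5 above. DDX10, a DEAD-box protein, came nearest, at 42.6 and 40.7 CPM in Ctrl and 32.9 and 31.0 CPM in PRMT3-KD libraries (-0.38, SE 0.0870, edgeR adjusted p = 0.0514). UTP20, a large scaffold protein, had 74.3 and 73.7 CPM against 64.5 and 58.7 CPM (-0.27, SE 0.0832, adjusted p = 0.0953). HEATR1, of the UTP-A complex, had 83.7 and 79.7 CPM against 71.5 and 70.1 CPM (-0.21, SE 0.0734, adjusted p = 0.120). In these 3 genes both PRMT3-KD libraries lay below both Ctrl libraries, and they differed from each other by -0.09, -0.14 and -0.03 on the log2 scale. In the whole class the PRMT3-KD libraries lay below for 5 of 11 factors (45.5%, beside 33.8% of all genes). They lay above for 3 (beside 33.3% of all genes). NOP14 had a log2 fold change of -0.02 (SE 0.124), with overlapping groups.

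Late small subunit maturation held values far apart in both directions. Past the edgeR threshold 1 of its 8 factors fell (12.5%, beside 5.97% of all genes) and 0 rose (beside 4.97%). At an unadjusted p under 0.05 the class had 1 lower and 2 higher, beside 18.5% and 19.1% of all genes. Besides PNO1, which fell, RIOK2, an atypical kinase of the pre-40S particle, had the highest value of all 56 factors, with 25.8 and 23.4 CPM in Ctrl and 41.1 and 30.8 CPM in PRMT3-KD libraries (0.55, SE 0.169, edgeR adjusted p = 0.0931). NOB1, the nuclease that cleaves the 3′ end of 18S rRNA and the binding partner of PNO1, had 78.9 and 82.2 CPM in Ctrl libraries but 107 and 74.7 CPM in PRMT3-KD libraries (0.17, SE 0.186, adjusted p = 0.548). TSR1 likewise had one knockdown value above and one below Ctrl, 113 and 84.6 CPM against 99.3 and 93.6 CPM (0.03, SE 0.158).

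In the large subunit class, EBNA1BP2 and RRP1B fell past the edgeR threshold, or 2 of 16 (12.5%, beside 5.97% of all genes). None rose (beside 4.97% of all genes). At an unadjusted p under 0.05 the class had 3 lower and 0 higher, beside 18.5% and 19.1% of all genes. The other 14 factors had log2 fold changes from -0.48 to 0.34 with edgeR adjusted p of 0.0646 or above. The value of -0.48 was that of NIP7, a pre-60S factor with 102 and 100.1 CPM in Ctrl and 80.1 and 64.6 CPM in PRMT3-KD libraries. GNL3, nucleostemin, a GTPase of stem and tumour cells, had 150.4 and 157 CPM in Ctrl and 191 and 164 CPM in PRMT3-KD libraries (0.21, SE 0.100, edgeR adjusted p = 0.206). DDX18 had 107 and 104 CPM against 121 and 105 CPM (0.11, SE 0.0963). In this class the groups overlapped for 11 of 16 factors, beside 4334 of all 13172 tested genes.

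Transcript levels per length differed widely, also within the scaffold class. In Ctrl libraries NPM1, nucleophosmin, had 835 CPM per kb of its canonical transcript, NCL, nucleolin, 287 and FBL 138, and RRP8, nucleomethylin, was lowest of the 56 with 2.02. NCL had 1128 and 1126 CPM in Ctrl and 1233 and 1024 CPM in PRMT3-KD libraries, a log2 fold change of 0.0015 (SE 0.112, edgeR adjusted p = 0.994). NPM1 had 1119.7 and 1085 CPM against 1178 and 1128 CPM (0.06, SE 0.0713, adjusted p = 0.555), and 49 pseudogenes with its name in the annotation make its counts uncertain. The same limit holds for BMS1, with 19 such pseudogenes, and to a lesser degree for DDX18, with 5. The remaining factors had at most 3. DDX21, a nucleolar RNA helicase, had 321 and 315 CPM against 391 and 336 CPM (0.19, SE 0.0985, adjusted p = 0.236).

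The PRMT3-KD libraries differed from each other in the same direction at every one of these genes. All 56 factors had a lower level in PRMT3-KD library 2 than in library 1, where 53.6% of all tested genes did. The log2 difference between these libraries had a median of -0.33 and ran from -0.78 at NOP56 to -0.00058 at BMS1, whose values of 64.2 and 64.2 CPM were equal in practice. Between the Ctrl libraries the median difference of the same genes was -0.02, with a range from -0.24 to 0.12, and 35 of 56 were lower in library 2. This compares 1 library with 1 library and has no test. PRMT3 itself was also lower in library 2, at 1.58 against 3.03 CPM, and its part in the difference was not tested.

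**Figure D4:**
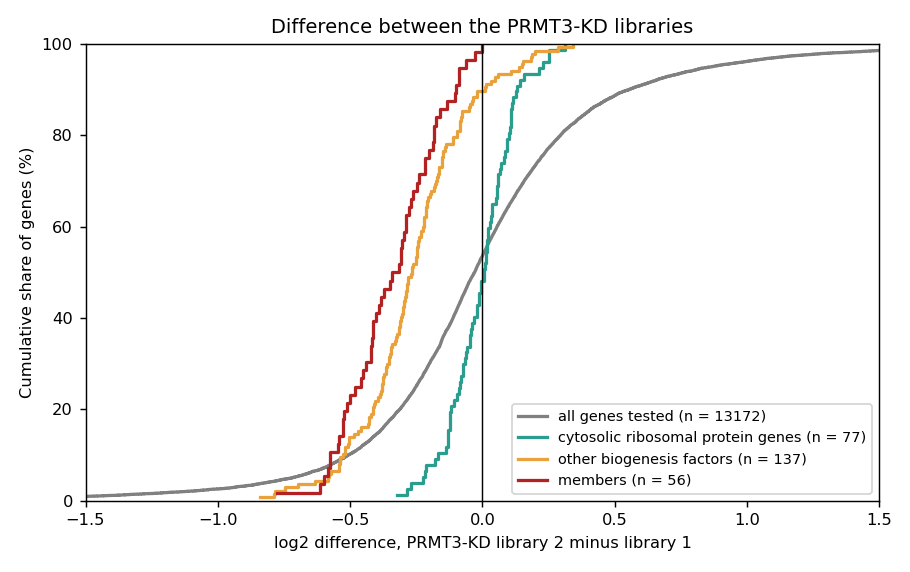
Cumulative share of genes (y axis, percent) against the log2 difference between PRMT3-KD library 2 and library 1 (x axis) for all 13172 tested genes, 77 cytosolic ribosomal protein genes, 137 other biogenesis factors and the 56 nucleolar factors ("members"). The curve of the nucleolar factors lies wholly at or left of 0, that of the ribosomal protein genes is steep and centred on 0, and genes beyond 1.5 in either direction fall outside the axis.

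With reference to Ctrl, the libraries thus gave opposite medians. In PRMT3-KD library 1 the median factor was 0.16 above the Ctrl mean on the log2 scale, and 17 of 56 lay below it. In library 2 the median was -0.15, and 42 of 56 lay below. The medians over all tested genes were 0.0029 and -0.0061. As a share of all counts, the 56 factors took 0.655% and 0.647% in Ctrl and 0.707% and 0.547% in PRMT3-KD libraries, so that the Ctrl values lie between those of the knockdown pair. Each of the 7 classes had the same order of its medians, and the box C/D proteins had the lowest in library 2, at -0.56. EBNA1BP2, PNO1, RRP1B and NOLC1 were below Ctrl in both libraries, at -1.03 and -1.60, -0.89 and -1.504, -0.66 and -1.03, and -0.43 and -0.62 respectively.

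The order of the PRMT3-KD libraries depended little on how they were scaled. With median-ratio size factors or upper-quartile scaling 55 of the 56 were lower in library 2, with medians of -0.31 and -0.32. With library totals alone all 56 were lower and the median was -0.43, but that scaling also moves the median of all tested genes to -0.13, with 64.8% of them lower.

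**Figure D5:**
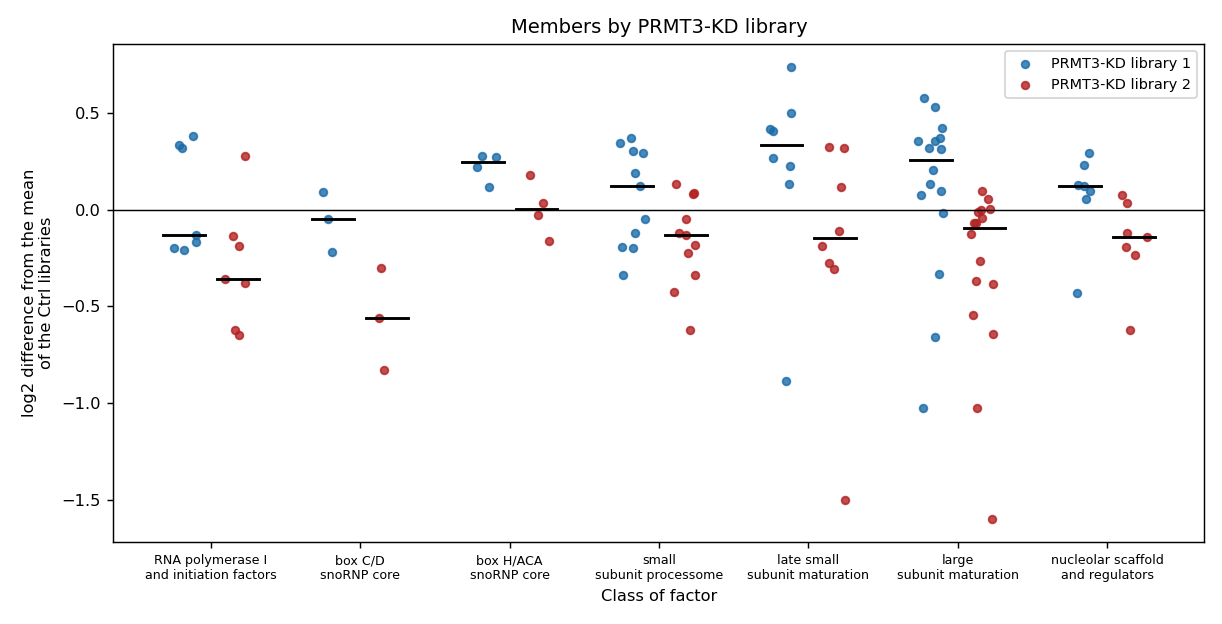
Log2 difference of each of the 56 factors from the mean of the Ctrl libraries (y axis), by class of factor (x axis), for PRMT3-KD library 1 (blue) and library 2 (red), with black lines at the medians. In every class the median of library 2 is below that of library 1, and the lowest points in both libraries are those of EBNA1BP2, PNO1 and RRP1B.

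Other factors of the same pathway, listed by function, were read beside these genes. Of 138 such factors 137 were in the table and tested (BOP1 was not analysed here). Past the threshold 3 fell (2.19%, beside 5.97% of all genes) and 0 rose (beside 4.97% of all genes). The median log2 fold change of the 137 was -0.01. At an unadjusted p under 0.05 the edgeR test had 22 lower (16.1%, beside 18.5% of all genes) and 17 higher (12.4%, beside 19.1%), and DESeq2 placed 5 past the threshold. NOL6, a processome factor, had 119.9 and 116 CPM in Ctrl and 73.4 and 49.2 CPM in PRMT3-KD libraries (-0.95, SE 0.206, edgeR adjusted p = 0.0474). FCF1, a PIN-domain protein of the processome, had 68.9 and 67.0 CPM against 43.1 and 43.5 CPM (-0.65, SE 0.0733, adjusted p = 0.0192). NAF1, an assembly factor of box H/ACA particles, had 11.6 and 11.2 CPM against 6.10 and 5.49 CPM (-0.98, SE 0.136, adjusted p = 0.0227). Without the fold threshold 5 of the 137 were lower (beside 8.91% of all genes) and 4 higher (beside 8.39% of all genes). Of the 137, 123 (89.8%) were lower in PRMT3-KD library 2 than in library 1, with a median difference of -0.27.

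The proteins of the finished ribosome were read in the same way. Of 77 cytosolic ribosomal protein genes, 37 (48.1%) were lower in PRMT3-KD library 2 than in library 1, with a median difference of 0.0050. With library totals alone 62 of the 77 (80.5%) were lower and their median was -0.096, beside -0.13 over all tested genes. Against Ctrl, RPL14 and RPS25 fell past the threshold, or 2 of the 77 (2.60%, beside 5.97% of all genes). None rose (beside 4.97% of all genes), and the median log2 fold change of the 77 was 0.02. At an unadjusted p under 0.05 the edgeR test had 12 lower (15.6%, beside 18.5% of all genes) and 2 higher (2.60%, beside 19.1%). RPS2 had 2252 and 2227 CPM in Ctrl and 1794 and 2138 CPM in PRMT3-KD libraries (-0.19, SE 0.108, edgeR adjusted p = 0.279), and was the higher of the pair in library 2.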

How the data were processed

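The authors deposited whole-number read counts per gene, unnormalized, for 4 libraries (2 Ctrl, 2 PRMT3-KD). Their methods and processing notes name CASAVA, TopHat, Cufflinks, DESeq2 and hg19. Versions, annotation and strand setting are not given in the sources used here. After removal of 1 duplicate entry, the table went through edgeR 4.0.16 (R 4.3.3): filterByExpr (minimum count 10, minimum total 15), TMM, glmQLFit and glmQLFTest, with Benjamini-Hochberg adjustment over 13172 genes. Standard errors came from the log2 fold change and its F statistic. An exact two-sided permutation test of 2 against 2 libraries cannot go below p = 0.333. Depth limits the precision of genes with few counts.

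The members and lists were chosen with earlier results of these data known. Named genes were PRMT3, RPS2, FBL, NCL, NPM1, members past the threshold, in each class the 2 most expressed members and the 2 with the smallest adjusted p, and other factors past the threshold. RIOK2, NIP7, POLR1E, RRN3, NOP58, RRP1, RRP8, BMS1, RPL14 and RPS25 were named after their values were seen. Alternatives were DESeq2 1.42.0, limma 3.58.1 (voom with group weights), other scalings, filters and fold thresholds, the replicate block and leaving out each library. The promoter motif was counted with Python 3.11.15 and pandas 2.3.3, and gene positions and lengths come from GENCODE 44 lifted to GRCh37. A search of 3′ UTRs is not reported here. Scripts were tested on simulated data.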

Additional observations from a re-analysis of the deposited data

How the results depend on the processing

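The number of members past the threshold was 3, with the same 3 genes, under DESeq2, limma-voom, the other 3 scalings, both other filters and the replicate block. It was 5 with no fold threshold and 2 over 2-fold, and it ranged from 0 to 9 when a library was left out: 0 without either Ctrl library, where 0 of all genes passed, 9 without PRMT3-KD replicate 1 (adding NIP7, NOLC1, NOP56, POLR1E, RRN3 and RRP9, all lower) and 4 without PRMT3-KD replicate 2 (adding RIOK2, higher). A group then has 1 library, which is assumed to vary like the other group, and the shared dispersion comes from the pair that remains. The members' median log2 fold change (0.0412) reversed to -0.147 without PRMT3-KD replicate 1 and was 0.159 without replicate 2. The other factors past the threshold numbered 5 with DESeq2, 5 with limma-voom, 9 with no fold threshold and 0 over 2-fold, and ranged from 0 to 15 when a library was left out, against 3. The PRMT3 value ranged from -3.61 to -2.68, with an adjusted p of 0.0764 without Ctrl replicate 1 and 0.0604 without Ctrl replicate 2. Values near 0 changed sign. NCL was -0.024 with library totals only, -0.0018 with at least 10 counts in every library, -0.0047 with the block and -0.0054 with limma-voom. With a library left out, the ranges were -0.14 to 0.13 for NCL, -0.19 to 0.22 for TSR1, -0.026 to 0.27 for NHP2, -0.11 to 0.40 for NOB1, -0.16 to 0.11 for DKC1 and -0.18 to 0.12 for NOP14. In these 6 genes the sign was set by which PRMT3-KD library was left out, and that of NCL (-0.00098) and TSR1 (-0.0094) also changed without Ctrl replicate 2. With the replicate number as a block the members' median was 0.0245, 3 members passed, and PRMT3 was -3.11. The labels do not say what a number shares, and deviations of same-numbered libraries correlated at 0.0580 over genes.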
